A study of Mus musculus with 12 samples.

Results

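The genes described here are 47 genes of cell adhesion, the actin cytoskeleton and the YAP/TAZ pathway, measured by RNA-seq in Neuro-2a cells, an adherent mouse neuroblastoma line. They were listed by symbol and were chosen by their changes in these same libraries, over the scramble control and both knockdowns and between replicates 1 and 2 and replicates 3 and 4. All 47 of the 55401 gene identifiers were found, and 39 passed the filter on low counts and entered the 17569 genes tested. The other 8 were Yap1, Ctgf, Ankrd1, Thbs1, Tagln, Lamb1, Anxa1 and Cav1. Because the choice used these contrasts, the members' differences in them are given as a description without p-values.

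The study reduced Rbmx, an X-linked gene for a nuclear RNA-binding protein, or its autosomal retrocopy Rbmxl1, with artificial microRNAs in a miR30 backbone. The control group, miScramble, received 3 µg of a plasmid with a scramble sequence. The miRbmx group received a pool of 3 plasmids against Rbmx, and the miRbmxl1 group a pool of 2 plasmids against Rbmxl1, again 3 µg in total. Every group, the control included, also received 1 µg of a plasmid expressing GFP by lipofection, and GFP-positive cells were collected by flow cytometry 48 hours later, so that all libraries come from transfected and sorted cells of 1 line. The microRNAs were driven by a CAG promoter, no untransfected cells are among the 12 libraries, and the knockdowns are partial. Each group has 4 libraries that the labels number as biological replicates 1 to 4. The labels do not say what a number shares across groups and give no date or batch.

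Integrins are paired α and β membrane receptors for matrix proteins such as fibronectin, laminin and collagen, and their cytoplasmic tails recruit talin, vinculin, paxillin and other plaque proteins that tie them to actin. The tension carried by this link is read by transcription pathways. In one, YAP and TAZ enter the nucleus when the Hippo kinases LATS1 and LATS2 are low and activate genes with TEAD factors, with Ctgf and Cyr61 as standard readouts. In another, actin polymerisation releases the MRTF cofactors to SRF, which binds CArG boxes in genes of actin and its partners. In neuroblastoma, high adhesion and YAP activity are associated with a mesenchymal-like state, as opposed to the sympathetic neuroblast state.

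Promoter sequences were compared because the members were grouped by pathways that act through short DNA motifs. RefSeq start sites on GRCm38.p6 were matched for 35 of the 47 members (not Ctgf, Fn1, Itga6, Itgb3, Lamc1, Lgals1, Parva, Ptk2, Pxn, Tagln, Tead1 or Thbs1). In the 250 bases before a start, on both strands, 3 motifs were searched: the TEAD motif CATTCC (reverse complement GGAATG), the AP-1 motif TGANTCA and the CArG box. No motif contains another, and matches of different motifs were allowed to overlap. The TEAD motif was in a promoter of 15 of 35 members (42.9%), against 14.4% of 27025 RefSeq genes. It was also in 17.9% of 106 genes of the same pathways outside the members. The CArG box was found in 3 members (8.57%), Cnn2, Vcl and Myl9, against 1.62% of all genes. The AP-1 motif was in Actn4, Anxa2 and Zyx, 8.57% of members against 7.82% of all genes. A match is a description of the letters and not of factor binding. The members were listed as genes of these pathways, so a share above that of all genes is not independent evidence.

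Sequences are shown for 5 members that were called higher in at least 1 knockdown, with the motif in capitals, and for Srf, the gene of the factor that binds the CArG box. Each runs from 250 bases before the RefSeq start to the last base before it, 5′ to 3′ on the gene's strand. Cnn2 (chr10:79988350-79988599, plus strand) and Vcl (chr14:20929148-20929397, plus strand) hold a CArG box, and Vcl also the reverse complement of the TEAD motif. Cyr61 (chr3:145649986-145650235, minus strand), Tagln2 (chr1:172499996-172500245, plus strand) and Flna (chrX:74246535-74246784, minus strand) hold the TEAD motif, Tagln2 at 2 positions. Srf (chr17:46556163-46556412, minus strand) holds 2 CArG boxes.
Cnn2: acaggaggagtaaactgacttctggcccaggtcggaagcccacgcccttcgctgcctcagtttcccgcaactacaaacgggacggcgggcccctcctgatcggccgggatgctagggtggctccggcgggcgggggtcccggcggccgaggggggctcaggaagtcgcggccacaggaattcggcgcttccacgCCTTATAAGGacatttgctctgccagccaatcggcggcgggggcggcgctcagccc
Vcl: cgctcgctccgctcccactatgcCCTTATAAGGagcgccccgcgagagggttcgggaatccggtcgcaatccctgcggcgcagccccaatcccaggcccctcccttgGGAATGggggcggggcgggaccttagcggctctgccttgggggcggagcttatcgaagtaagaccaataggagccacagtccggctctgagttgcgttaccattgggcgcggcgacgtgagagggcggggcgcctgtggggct
Cyr61: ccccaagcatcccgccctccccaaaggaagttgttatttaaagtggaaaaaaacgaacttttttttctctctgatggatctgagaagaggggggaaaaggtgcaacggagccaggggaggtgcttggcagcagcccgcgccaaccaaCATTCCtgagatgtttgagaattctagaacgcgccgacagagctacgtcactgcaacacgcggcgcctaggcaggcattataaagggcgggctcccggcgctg
Tagln2: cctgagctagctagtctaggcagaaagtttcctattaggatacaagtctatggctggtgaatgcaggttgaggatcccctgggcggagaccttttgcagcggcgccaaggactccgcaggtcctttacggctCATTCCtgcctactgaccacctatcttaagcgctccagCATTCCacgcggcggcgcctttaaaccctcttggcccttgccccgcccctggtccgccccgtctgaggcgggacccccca
Flna: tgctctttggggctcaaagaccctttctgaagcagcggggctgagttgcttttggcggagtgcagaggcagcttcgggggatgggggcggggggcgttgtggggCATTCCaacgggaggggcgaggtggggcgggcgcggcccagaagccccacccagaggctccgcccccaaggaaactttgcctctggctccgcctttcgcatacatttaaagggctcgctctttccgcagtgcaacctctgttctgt
Srf: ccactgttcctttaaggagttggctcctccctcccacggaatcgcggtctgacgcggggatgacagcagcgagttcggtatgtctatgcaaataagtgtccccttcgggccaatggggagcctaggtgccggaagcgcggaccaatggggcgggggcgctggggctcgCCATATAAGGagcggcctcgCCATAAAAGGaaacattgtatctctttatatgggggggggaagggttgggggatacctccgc
Of the 10 members called in a knockdown, 7 had a matched promoter, and each of the 7 held at least 1 of the 3 motifs, as did 19 of the 35 matched members (54.3%), 29.2% of the 106 other pathway genes and 22.0% of all RefSeq genes. The 10 were called in the same contrasts that chose the members, so these shares are a description and not evidence about the calls.

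Library depth was 43.1 to 52.2 M reads in genes (median 47.3 M). Values are counts-per-million (CPM) after TMM scaling of the library sizes. The targeted genes matched the labels: Rbmx was at 67.7 ± 7.15 CPM (SD, n = 4) in miScramble and 27.6 ± 4.96 in miRbmx, and Rbmxl1 was at 34.1 ± 2.21 CPM in miScramble and 14.2 ± 1.99 in miRbmxl1. Rbmx was at 86.3 ± 3.51 CPM in miRbmxl1, where all 4 libraries (at least 81.9 CPM) lay above the scramble range of 57.6 to 73.3 CPM, and Rbmxl1 was at 36.1 ± 2.11 CPM in miRbmx. The neuroblast identity of the line was borne by its markers, with 13 of 14 above 1 CPM. Of 11 mesenchymal-state markers 5 were above 1 CPM (Vim, Fosl2, Notch2, Maml2 and Notch3), while Twist1 had no count and Prrx1 had 6 in all. Fibroblast, Schwann cell, endothelial and macrophage markers were mostly near 0, with Col3a1 and Thy1 at 0 counts. A mean of at least 1 CPM was reached by 2 of 8 fibroblast, 2 of 6 Schwann cell, 1 of 5 endothelial and 0 of 5 macrophage markers. In miScramble the fibroblast markers summed to 30.1 to 35.6 CPM and the Schwann cell markers to 13.4 to 17.3 CPM. In bulk RNA, fewer cells of a type and less RNA per cell cannot be told apart.

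The members spanned a wide range of levels, and several YAP/TAZ genes, Ctgf among them, were nearly silent. Per kilobase of exon, the highest in miScramble was Lgals1, a secreted galectin, at 383 CPM per kb, followed by the integrin subunit Itgb1 at 155, the actin-binding protein Tagln2 at 116 and filamin A, Flna, at 101. Yap1 itself had 0 or 1 count in every library and Ctgf likewise. Ankrd1, a stretch-responsive YAP target, had at most 4 counts in a library, and Thbs1, a matrix glycoprotein and YAP target, at most 9. Cav1, the caveola coat protein, had no count in any library, which allows up to 0.0574 to 0.0696 CPM (3 counts per library, counting error only). Against this, the TAZ gene Wwtr1 was at 41.1 ± 6.63 CPM (SD, n = 4) and Tead1 at 429 ± 39.1 CPM in miScramble. The name YAP target genes therefore fits the list only in part in these cells: of 6 members listed as targets, Cyr61, Amotl2 and Axl were tested and the other 3 were not.

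**Figure D1:**
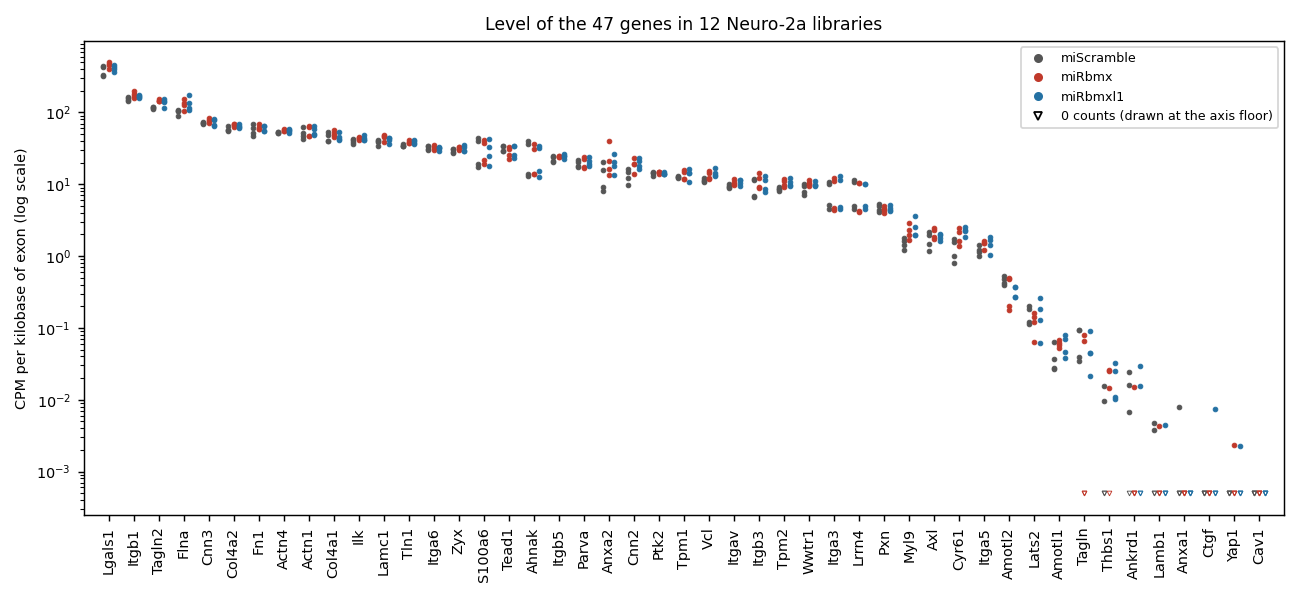
Level of each of the 47 members in CPM per kilobase of exon (log axis) in the 12 libraries, ordered by mean, with 1 point per library coloured by group and triangles at the axis floor for 0 counts. Lgals1 and Itgb1 lead, and Cav1 is at 0 counts in all 12 libraries.

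Against miScramble, 9 of 39 tested members were called higher and none lower in miRbmx, where called means a Benjamini-Hochberg adjusted p under 0.05 over all genes in edgeR's quasi-likelihood test with the replicate number as block. Over all genes tested, 8.35% were called in this comparison, 4.16% higher and 4.19% lower. In miRbmxl1, 6 of 39 were called higher and none lower, against 4.46% of all genes, 2.25% higher and 2.20% lower. The median log2 difference of the 39 members was 0.16 in miRbmx and 0.12 in miRbmxl1, beside 0.00 and 0.01 over all genes tested. Both comparisons use the same 4 scramble libraries, so their values stand side by side and are not independent. The called differences are small: none of the 39 reached 2-fold in either knockdown.

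**Figure D2:**
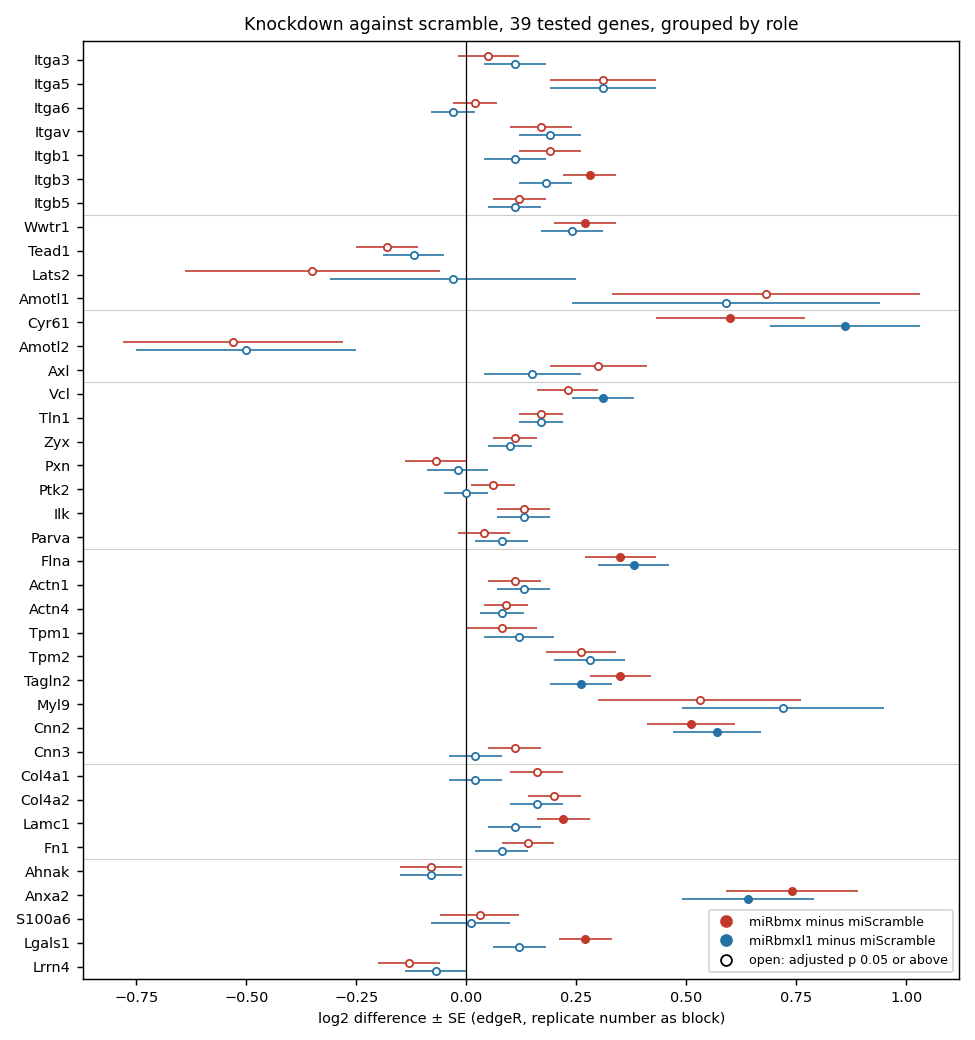
Log2 difference from miScramble ± SE for the 39 tested members, grouped by role from integrins at the top to the annexin group at the bottom, for miRbmx (red) and miRbmxl1 (blue), with filled points for called genes. Cyr61, Anxa2, Cnn2, Flna and Tagln2 have filled points in both knockdowns, and Amotl2 lies farthest to the left.

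These counts depend on the replicate block and on single libraries. Without the block no member was called in either knockdown, and 1 gene was called over the whole table in each. The miRbmx count of 9 became 5, 1 and 4 without miScramble replicate 1, 3 or 4, 5 and 3 without miRbmx replicate 2 or 3, and 15 without miRbmxl1 replicate 2. The miRbmxl1 count of 6 became 2, 3, 2 and 2 without miScramble replicate 1, 2, 3 or 4, and 1, 3 and 2 without miRbmxl1 replicate 1, 3 or 4, while it became 10 without miRbmxl1 replicate 2. With all libraries of number 1, 2, 3 or 4 left out, the counts were 5, 9, 0 and 3 in miRbmx and 1, 9, 1 and 0 in miRbmxl1. The count over all genes moved with these fits, from 0.831% to 10.7% of genes in miRbmx and from 0.570% to 5.77% in miRbmxl1 with a library or a number left out. Every called member stayed higher in all 23 alternative settings run for its comparison. Within replicates 1 and 2 no member was called in either knockdown, where 4 and 30 genes of the whole table were called (0.0230% and 0.172%). Within replicates 3 and 4 the member counts were 14 (12 higher) and 12 (11 higher) of 39, where 10.1% and 5.53% of all genes were called, so the count over all genes moved in the same way.

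Among the 7 integrin subunits, Itgb3 was called in miRbmx. Itgb3 pairs with αv as a vitronectin and fibronectin receptor, and its miScramble values were 70.8, 67.7, 40.3 and 39.1 CPM for replicates 1 to 4. In miRbmx they were 84.2, 71.9, 53.3 and 51.8 CPM, and in miRbmxl1 77.9, 67.3, 50.8 and 46.6 CPM. Each miRbmx library lay above the scramble library of the same number, although the groups overlap because replicates 3 and 4 were low in every group. The same held for members not called in miRbmx, such as Axl and Zyx. The share of all genes that do so was not counted, so here and below such pairs do not set a gene apart. The log2 difference was 0.28 ± 0.06 (SE) in miRbmx and 0.18 ± 0.06 in miRbmxl1. The fibronectin receptor subunit Itga5 was low, at 5.91 ± 0.852 CPM in miScramble, with differences of 0.31 ± 0.12 in both knockdowns. Itgav, Itgb1 and Itgb5 had differences from 0.11 to 0.19, and the laminin receptor subunits Itga3 and Itga6 from −0.03 to 0.11. Outside the members, none of 10 other tested integrin subunits was called in either knockdown in edgeR, with 0 and 1 at an unadjusted p under 0.05. Over all genes 24.9% and 19.8% were at an unadjusted p under 0.05 in miRbmx and miRbmxl1.

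Of the pathway's regulators, Wwtr1, which encodes TAZ, was called in miRbmx. Its values were 34.3, 36.9, 48.4 and 44.9 CPM in miScramble, 47.9, 44.6, 55.5 and 49.7 CPM in miRbmx, and 44.7, 47.4, 47.4 and 53.5 CPM in miRbmxl1. All 4 miRbmx libraries exceeded their scramble partner, with a difference of 0.27 ± 0.07, and 3 of 4 did in miRbmxl1, with 0.24 ± 0.07. Its DNA-binding partner Tead1 was lower than its partner library in 4 of 4 miRbmx libraries, at −0.18 ± 0.07, and was not called. Lats2, the kinase that restrains TAZ, stood near 1 CPM and had differences of −0.35 ± 0.29 and −0.03 ± 0.28. Its exons overlap those of Gm49361 on the same strand over 42.4% of their length, so its count is uncertain. Amotl1, an angiomotin that holds YAP and TAZ at junctions, was at 0.388 ± 0.169 CPM with differences of 0.68 ± 0.35 and 0.59 ± 0.35.

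Cyr61 was the called YAP/TAZ target. It encodes a secreted matricellular protein (Ccn1 in current annotation), and its promoter above carries the TEAD motif. Its values were 1.61, 2.00, 3.19 and 3.53 CPM in miScramble, 2.78, 3.28, 5.01 and 4.43 CPM in miRbmx and 4.52, 3.78, 4.68 and 5.10 CPM in miRbmxl1. Every miRbmxl1 library exceeded every scramble library, while miRbmx and miScramble overlap. The uncalled Tpm2 and Myl9 also had every miRbmxl1 library above every scramble library. The share of all genes without overlap between a knockdown and miScramble was not counted, here and below. The log2 differences were 0.60 ± 0.17 (1.52-fold) in miRbmx and 0.86 ± 0.17 (1.81-fold) in miRbmxl1. Amotl2, an angiomotin that is both a target and an inhibitor of YAP and TAZ, had the opposite sign: −0.53 ± 0.25 in miRbmx and −0.50 ± 0.25 in miRbmxl1, not called. Its 4 miRbmxl1 libraries, at 1.69, 2.37, 1.72 and 2.32 CPM, all lay under the scramble range of 2.50 to 3.36 CPM. The receptor tyrosine kinase Axl had differences of 0.30 ± 0.11 and 0.15 ± 0.11.

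Of 11 other YAP/TAZ targets tested, 4 were called in miRbmx and 3 in miRbmxl1, split in direction, where 8.35% and 4.46% of all genes were called. The list medians were 0.03 and 0.02. The Golgi kinase-like gene Fjx1 rose by 0.19 ± 0.06 (adjusted p = 0.0475) and the Rac activator Dock5 rose by 0.31 ± 0.09 (adjusted p = 0.0463). Tissue factor, F3, fell by 0.31 (SE 0.07, adjusted p = 0.0132) and the growth factor Tgfb2 fell by 0.29 (SE 0.07, adjusted p = 0.0238). In miRbmxl1, Fjx1 rose by 0.35 ± 0.06 (adjusted p = 0.00644), Tgfb2 fell by 0.34 (adjusted p = 0.0174) and F3 fell by 0.24 (adjusted p = 0.0493), in edgeR's quasi-likelihood test as elsewhere. Among 16 tested Hippo pathway genes 2 were called in each knockdown, 12.5% of the list. The kinase Lats1 fell in both knockdowns, by 0.21 (SE 0.05, adjusted p = 0.0215) and 0.24 (SE 0.05, adjusted p = 0.0165). The TEAD cofactor Vgll4 rose by 0.30 ± 0.08 in miRbmx (adjusted p = 0.0373) and Frmd6 fell by 0.31 (SE 0.08, adjusted p = 0.0378) in miRbmxl1. In the 16 fits that left out a library or a number, Fjx1 in miRbmxl1 stayed called in 16, F3 in miRbmx in 12, Lats1 in miRbmxl1 in 10, and Tgfb2 in 8 in miRbmx and 9 in miRbmxl1. The others stayed called in few: Lats1 and Vgll4 in miRbmx in 4 each, Frmd6 in 3, Fjx1 and Dock5 in miRbmx in 2 each and F3 in miRbmxl1 in 1.

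Of the 7 plaque proteins, vinculin was called in miRbmxl1. Vcl, which links talin to actin under load, was at 89.3, 101, 95.5 and 91.2 CPM in miScramble, 98.4, 126, 116 and 101 CPM in miRbmx, and 109, 107, 136 and 118 CPM in miRbmxl1. No miRbmxl1 library fell into the scramble range, and the difference was 0.31 ± 0.07, with 0.23 ± 0.07 in miRbmx. Opposite-strand exons of Ap3m1 cover 25.5% of its exon length. Talin 1, Tln1, the activator of integrins, had a difference of 0.17 ± 0.05 in both knockdowns, not called, and its groups did not overlap in either. Zyxin, Zyx, had 0.11 ± 0.05 and 0.10 ± 0.05, and Ilk 0.13 ± 0.06 in both, although 89.7% of the exon length of Ilk is shared with opposite-strand genes. The scaffold Pxn, the kinase Ptk2 and the adaptor Parva lay between −0.07 and 0.08. Outside the members, 2 of 21 focal adhesion genes were called in each knockdown, the tensin Tns2 and the paxillin relative Tgfb1i1, a share of 9.52% beside 8.35% of all genes in miRbmx and 4.46% in miRbmxl1. Tns2 rose by 0.41 ± 0.08 in miRbmx (adjusted p = 0.00956) and 0.38 ± 0.08 in miRbmxl1 (adjusted p = 0.0189), and Tgfb1i1 rose by 0.28 ± 0.07 (adjusted p = 0.0212) and 0.36 ± 0.07 (adjusted p = 0.0115). With a library or a number left out, Tns2 stayed called in 14 and 8 of 16 fits and Tgfb1i1 in 10 and 13.

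Of the 9 tested actin-binding members, Flna, Tagln2 and Cnn2 were called in each knockdown and the other 6 in neither. All 9 differences were above 0 in both, as were 50.0% and 51.4% of those of all genes, down to 0.02 ± 0.06 for Cnn3 in miRbmxl1, which was above its scramble partner in 2 of 4 pairs. Filamin A, which cross-links actin and binds integrin tails, was at 837, 986, 1005 and 983 CPM in miScramble. It was at 981, 1293, 1428 and 1206 CPM in miRbmx and at 1097, 1016, 1628 and 1274 CPM in miRbmxl1. The differences were 0.35 ± 0.08 and 0.38 ± 0.08, and all miRbmxl1 libraries lay above the scramble range. Tagln2, a calponin-family actin bundler with 2 TEAD motifs in the promoter printed above, was at 230.3, 249, 239.6 and 246 CPM in miScramble. It was at 301, 305, 319 and 302 CPM in miRbmx, with no overlap, and at 302, 243, 324 and 288 CPM in miRbmxl1, where replicate 2 lay within the scramble range. Its differences were 0.35 ± 0.07 and 0.26 ± 0.07.

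Calponin 2, Cnn2, an actin-binding regulator of contractility with a CArG box in the printed promoter, was called in 19 of the 23 alternative settings in each knockdown. Its values were 36.6, 40.8, 29.8 and 23.9 CPM in miScramble, 47.5, 57.2, 47.7 and 33.8 CPM in miRbmx, and 51.5, 44.2, 56.4 and 40.1 CPM in miRbmxl1. Each knockdown library exceeded its scramble partner, with differences of 0.51 ± 0.10 (1.42-fold) and 0.57 ± 0.10 (1.49-fold). It stayed called in 14 of 16 fits that left out a library or a number, in each knockdown. Tagln2 and Anxa2 did so in 14 of 16 fits each in miRbmx, and Cyr61 in 12 of 16 in miRbmxl1. The other calls held in 3 to 11 of 16. The myosin light chain Myl9, also with a CArG box, was near 2 CPM and had 0.53 ± 0.23 and 0.72 ± 0.23, not called. The tropomyosins Tpm2 and Tpm1, which coat actin filaments, had 0.26 ± 0.08 and 0.28 ± 0.08, and 0.08 ± 0.08 and 0.12 ± 0.08, and the α-actinins Actn1 and Actn4 and the calponin Cnn3 had 0.02 to 0.13.

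**Figure D3:**
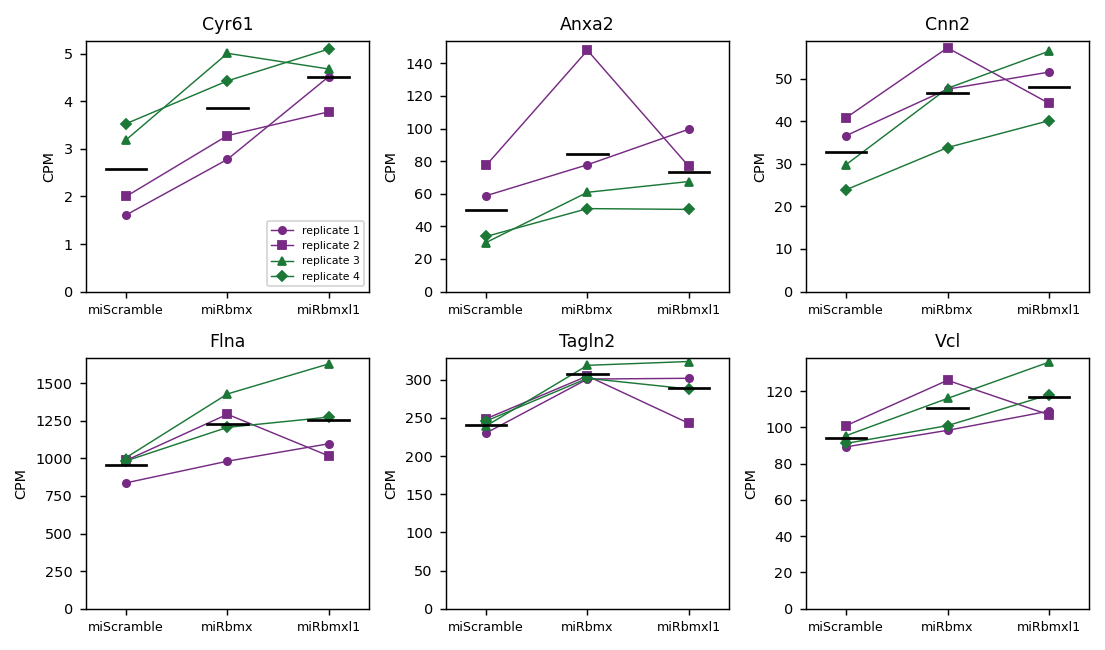
CPM of Cyr61, Anxa2, Cnn2, Flna, Tagln2 and Vcl in the 12 libraries, with a line joining the libraries of 1 replicate number, purple for replicates 1 and 2, green for 3 and 4, and black bars for group means. Tagln2 in miRbmx lies at 301 to 319 CPM, above all scramble libraries, and Anxa2 in miRbmx replicate 2 stands highest at 148 CPM.

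Some genes of actin and of SRF outside the members rose in the same comparisons. Of 20 tested, 6 rose in miRbmx and 5 in miRbmxl1, where 4.16% and 2.25% of all genes rose, and none fell. The other 14 and 15 were not called, and 4 and 6 of the 20 had a negative difference. Srf, with 2 CArG boxes in its promoter, was at 40.2, 43.2, 56.3 and 55.0 CPM in miScramble, 48.3, 51.7, 81.6 and 75.7 CPM in miRbmx and 47.8, 53.1, 77.6 and 75.8 CPM in miRbmxl1. It rose by 0.38 ± 0.06 (adjusted p = 0.00490) and 0.37 ± 0.06 (adjusted p = 0.00644), higher in 4 of 4 pairs in each, and stayed called in 16 and 15 of 16 fits that left out a library or a number. The cytoplasmic actins rose too: Actb by 0.41 ± 0.08 (adjusted p = 0.00918) and 0.36 ± 0.08 (adjusted p = 0.0232), and Actg1 by 0.39 ± 0.07 (adjusted p = 0.00666) and 0.32 ± 0.07 (adjusted p = 0.0199). The lamin A gene Lmna rose by 0.30 ± 0.08 in miRbmx (adjusted p = 0.0280), and the PDZ-LIM protein gene Pdlim7 by 0.34 ± 0.09 in miRbmxl1 (adjusted p = 0.0494), with a range of 0.05 to 0.63 over the 23 settings. Of those 16 fits, Actb stayed called in 14 and 7, Actg1 in 15 and 6, Lmna in 7 and Pdlim7 in 6. The list was written with earlier results of these libraries known and is not independent evidence of its direction.

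Of the 4 tested matrix members, the laminin chain Lamc1 was called in miRbmx. Its values were 285, 322, 327 and 338 CPM in miScramble and 323, 377, 389.7 and 398 CPM in miRbmx, higher in 4 of 4 pairs with a difference of 0.22 ± 0.06. In miRbmxl1 it was at 343, 297, 365 and 369 CPM, with 0.11 ± 0.06. The collagen IV chains Col4a1 and Col4a2, which form the basement membrane net, had 0.16 ± 0.06 and 0.20 ± 0.06 in miRbmx and 0.02 ± 0.06 and 0.16 ± 0.06 in miRbmxl1. Fibronectin, Fn1, had 0.14 ± 0.06 and 0.08 ± 0.06. The laminin chain Lamb1 had at most 2 counts in a library. Of 10 other matrix genes tested, perlecan, Hspg2, rose by 0.21 ± 0.06 (adjusted p = 0.0389) and 0.22 ± 0.06 (adjusted p = 0.0451), and Sparc rose by 0.27 ± 0.07 in miRbmx (adjusted p = 0.0297). These 2 and 1 of 10 stand beside 8.35% and 4.46% of all genes called, and 6 and 7 of the 10 had a negative difference. With a library or a number left out, Hspg2 stayed called in 5 and 3 of 16 fits and Sparc in 7.

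Anxa2, which encodes annexin A2, a calcium-dependent membrane-actin linker with an AP-1 motif in its promoter window, had the highest difference of the called members in miRbmx. It was at 58.8, 77.4, 30.1 and 33.8 CPM in miScramble, 77.8, 148, 60.9 and 50.9 CPM in miRbmx, and 99.6, 76.8, 67.5 and 50.4 CPM in miRbmxl1. The groups overlap, since replicates 3 and 4 were lower than 1 and 2 in each, but miRbmx was above its scramble partner in 4 of 4 pairs and miRbmxl1 in 3 of 4. The differences were 0.74 ± 0.15 (1.68-fold) and 0.64 ± 0.15 (1.56-fold). Lgals1 was called in miRbmx at 0.27 ± 0.06, from 385, 405, 302 and 291 CPM to 452, 431, 364 and 411 CPM, and had 0.12 ± 0.06 in miRbmxl1. Ahnak, a very large scaffold bound by the annexin A2 complex, the calcium-binding S100a6 and the membrane protein gene Lrrn4 lay between −0.13 and 0.03 in both knockdowns. Outside the members, 5 of 15 annexin, S100 and caveola genes rose in miRbmx and 1 in miRbmxl1 (6.67%), where 4.16% and 2.25% of all genes rose. Cavin1, a caveola coat protein gene, rose by 0.53 ± 0.10 (adjusted p = 0.00872) and 0.43 ± 0.10 (adjusted p = 0.0282) although Cav1 had no counts, and Anxa5 rose by 0.35 ± 0.06 in miRbmx (adjusted p = 0.00655). With a library or a number left out, Cavin1 stayed called in 15 and 7 of 16 fits and Anxa5 in 15.

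Over the 7 pathway lists outside the members, 21 of 103 tested genes were called in miRbmx (18 higher, 3 lower) and 14 in miRbmxl1 (10 higher, 4 lower), with medians of 0.06 and 0.00. Over all genes 8.35% and 4.46% were called. Those counts became 0 without the block. In fits without 1 library, the miRbmx count was 9, 13, 6 and 7 without miScramble replicates 1 to 4 and 13, 8, 9 and 11 without miRbmx replicates 1 to 4. The miRbmxl1 count was 5, 4, 2 and 5 without miScramble replicates 1 to 4, and 6, 6 and 5 without miRbmxl1 replicates 1, 3 and 4. Of 13 tested neuroblast markers 2 were called in each knockdown, and 3 in miRbmx and 5 in miRbmxl1 had a negative difference, with list medians of 0.15 and 0.05. Mycn rose by 0.56 ± 0.12 (adjusted p = 0.0126) and 0.66 ± 0.12 (adjusted p = 0.00844) and Insm1 also rose in both. The summed level of the 14 markers was 2224 to 2906 CPM in miScramble, 2445 to 3016 CPM in miRbmx and 2402 to 2831 CPM in miRbmxl1. The 11 mesenchymal-state markers summed to 935 to 1102 CPM, 1084 to 1389.9 CPM and 991 to 1283 CPM, mostly from Vim. Of the 5 tested, Vim was called in miRbmx at 0.32 ± 0.09 (adjusted p = 0.0309) and had 0.18 ± 0.09, not called, in miRbmxl1, and no other was called in either. A total of 2 of the 5 had a negative difference in each knockdown, down to −0.19 in miRbmx and −0.15 in miRbmxl1. In miScramble, miRbmx and miRbmxl1 the Schwann cell markers summed to 13.4 to 17.3, 16.6 to 23.0 and 16.7 to 21.5 CPM. The fibroblast markers summed to 30.1 to 35.6, 31.2 to 43.9 and 25.6 to 45.8 CPM. The part of all these markers in the members' differences was not tested.

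Compared directly, miRbmx and miRbmxl1 gave no called member in edgeR, with 2 of 39 at an unadjusted p under 0.05 and none called by DESeq2. Those 2, named after their values were seen, were Col4a1 at 0.14 ± 0.06 and Lgals1 at 0.15 ± 0.06. Over all genes 0.0114% were called, and 5.70% were at an unadjusted p under 0.05 in edgeR. The median difference of the members was 0.00, and the single differences ran from −0.32 for Lats2 to 0.16 for Axl. For Cyr61 the direct difference was −0.26 ± 0.16, for Anxa2 0.10 ± 0.15, for Cnn2 −0.07 ± 0.10 and for Flna −0.03 ± 0.08. A member called in 1 knockdown alone, such as Itgb3, at 0.11 ± 0.06, or Vcl, at −0.09 ± 0.07, is thus not shown to differ between the knockdowns.

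The separation of replicates 3 and 4 from replicates 1 and 2 was larger than either knockdown for many members. With the group as covariate, 27 of 39 members were called between these sets, 9 higher and 18 lower in replicates 3 and 4, where 45.5% of all genes were called, 23.1% higher and 22.5% lower. The median member difference was −0.05, beside 0.03 over all genes. In 12 members all 6 libraries of replicates 3 and 4 lay under all 6 of replicates 1 and 2, and in 1, Zyx, above them. Over all genes these shares were 10.6% and 9.40%. The sets were defined from these libraries and not from the labels, and libraries that share a number are not independent, so p-values of the sets are too small. With counts summed per replicate number, 22 of 41 members were called, since more genes passed the filter, and 32.8% of all genes. The share of reads outside features was 26.3% to 29.2% of each file's total in replicates 1 and 2 and 30.8% to 32.2% in replicates 3 and 4, without overlap, and its part in the set differences was not tested. A median of 40.1% of a member's variance lay between the sets and 28.7% between the groups, against 30.7% and 14.8% for all genes. The members were chosen by changes between these sets and groups, so their shares are not independent of that choice.

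The deepest drops were in Ahnak, Itga3 and Lrrn4. Ahnak ranged from 609 to 795 CPM (median 702) in replicates 1 and 2 and from 250.3 to 308 CPM (median 276) in replicates 3 and 4, a difference of −1.34 ± 0.06. Itga3, the α3 chain of a laminin receptor, ranged from 56.8 to 74.6 CPM (median 63.7) and from 25.2 to 29.0 CPM (median 26.4), a difference of −1.27 ± 0.06. Lrrn4 ranged from 37.1 to 42.1 CPM and from 15.2 to 18.5 CPM, −1.21 ± 0.06. These 3 genes, which hardly differed between the groups, split without overlap by replicate number. S100a6 had −0.99 ± 0.09, Anxa2 −0.89 ± 0.14, Lats2 −0.88 ± 0.23 and Itgb3 −0.65 ± 0.06. All 7 were lower in replicates 3 and 4 in every one of the 25 settings run.

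The YAP/TAZ and actin members moved both ways between the sets. Cyr61 was higher in replicates 3 and 4, from 1.61 to 4.52 CPM (median 3.03) in the first set and from 3.19 to 5.10 CPM (median 4.55) in the second, 0.58 ± 0.13. Wwtr1 was also higher, 0.23 ± 0.06, while Tead1 was lower, −0.38 ± 0.05, as were Amotl2 at −0.54 ± 0.20 and Axl at −0.41 ± 0.09. Amotl2 was at −0.29 ± 0.21 within miScramble, −1.39 ± 0.28 within miRbmx and −0.01 ± 0.33 within miRbmxl1. Flna (0.26 ± 0.08), Tpm1 (0.24 ± 0.07), Tpm2 (0.18 ± 0.06), Zyx (0.18 ± 0.04), Lamc1 (0.17 ± 0.05), Cnn3 (0.14 ± 0.05) and Itga6 (0.11 ± 0.04) were higher. Tpm2 was at −0.02 within miScramble alone. Actn1 (−0.37 ± 0.05), Itga5 (−0.34 ± 0.10), Parva (−0.33 ± 0.05), Cnn2 (−0.29 ± 0.11), Lgals1 (−0.27 ± 0.05), Col4a1 (−0.26 ± 0.05), Fn1 (−0.25 ± 0.05) and Pxn (−0.21 ± 0.05) were lower, and Cnn2 was at 0.01 within miRbmxl1 alone. In the 16 fits that left out a library or a number, the call held in 3 for Itga6, 5 for Tpm2, 6 for Cnn2, 7 for Cnn3, 8 for Amotl2 and 12 for Lamc1, and in at least 14 for each other member called between the sets.

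**Figure D4:**
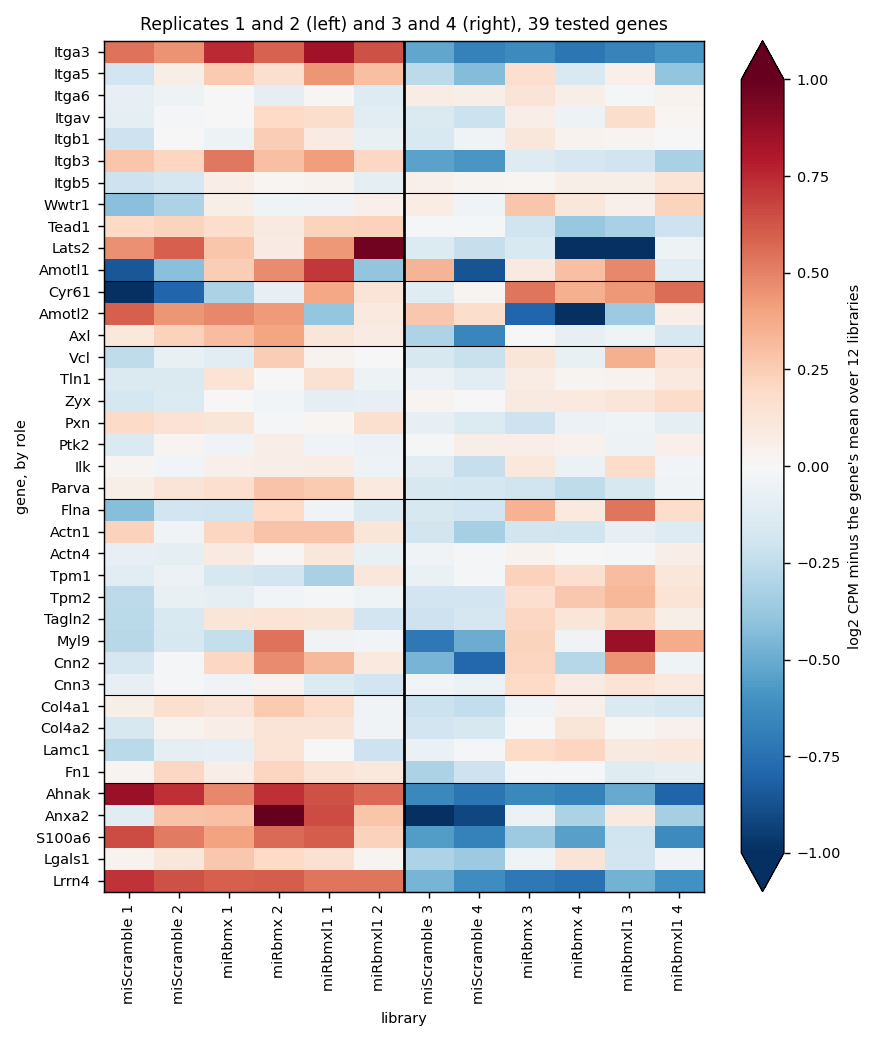
Log2 CPM minus the gene's mean over the 12 libraries for the 39 tested members (rows, by role) in each library (columns), replicates 1 and 2 left of the black line and 3 and 4 right of it, with colours saturating at ±1. Itga3, Ahnak, S100a6 and Lrrn4 are red on the left and blue on the right in all 3 groups.

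Outside the members, 69 of 103 tested pathway genes were called between the sets, 20 higher and 49 lower, where 23.1% of all genes were higher and 22.5% lower. The integrin subunits Itga2 (−0.93 ± 0.13), Itgb4 (−0.83 ± 0.09) and Itga1 (−0.69 ± 0.05) fell, 7 of 10 in all. Another subunit of this list was called higher, with a log2 difference of 0.37 to 2.5 over 25 settings. The filamin-binding LIM protein gene Fblim1 (−1.96 ± 0.15) and the vinculin binder Sorbs3 (−1.26 ± 0.11) fell, as did Tead2 (−1.21 ± 0.13) and the tissue factor gene F3 (−0.72 ± 0.05). In the annexin and S100 list 12 of 15 fell, with S100a1 at −1.26 ± 0.11, whereas in the actin and SRF list 9 of 20 rose and 2 fell, with Actn2 at 1.28 ± 0.21 and Srf at 0.56 ± 0.05. The neuroblast markers summed to 2676 to 3016 CPM in replicates 1 and 2 and to 2224 to 2503 CPM in replicates 3 and 4, without overlap, with Chgb and Stmn2 lower and Insm1 higher. Of the 13 tested, 7 were called lower and 1 higher. The mesenchymal-state markers summed to 991 to 1389.9 CPM and 935 to 1131 CPM, ranges that overlap and are mostly Vim. All 5 tested had a negative difference between the sets, with a median of −0.46, and 4 were called lower: Notch3 (−1.23 ± 0.19), Maml2 (−0.69 ± 0.11), Notch2 (−0.46 ± 0.05) and Fosl2 (−0.21 ± 0.06). Both tested fibroblast markers were also called lower, Pdgfra at −0.85 ± 0.20 and Pdgfrb at −0.31 ± 0.09, while Col3a1 and Thy1 had no counts. The Schwann cell markers went the other way in sum, with 13.4 to 18.1 CPM in replicates 1 and 2 and 15.5 to 23.0 CPM in replicates 3 and 4, ranges that overlap. Of 2 tested endothelial markers Pecam1 was called lower (−0.44 ± 0.09). The macrophage marker Cd68, the 1 tested, was called higher (0.80 ± 0.22), at no more than 1.48 CPM in any library. The part of these markers in the set differences was not tested. Within a group the number of called pathway genes was 45 in miScramble, 46 in miRbmx and 26 in miRbmxl1, and that of called members 19, 17 and 7 of 39, with 2 libraries a set. Over all genes 25.7%, 32.6% and 12.2% were called in those fits, and the counts were lowest in miRbmxl1 for the whole table as well.

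Whether the knockdown differences changed with the replicate set was tested as an interaction. In edgeR no member was called for miRbmx or for miRbmxl1, as was no gene of the whole table (0% in both). An unadjusted p under 0.05 was found for 6 and 11 of 39 members, beside 11.1% and 8.36% of all genes. DESeq2 called no member, and 0.188% and 0.176% of all genes. With 4 residual degrees of freedom the precision was low. The largest member terms were those of Amotl2 in miRbmx, −1.05 ± 0.36 (adjusted p = 0.342), and Myl9 in miRbmxl1, 1.03 ± 0.37 (adjusted p = 0.491). Amotl2 was at 3.09 and 2.98 CPM in miRbmx replicates 1 and 2 and at 1.28 and 1.10 CPM in replicates 3 and 4, beside 3.36, 3.00, 2.67 and 2.50 CPM in miScramble. Cnn2 had the smallest unadjusted p in miRbmxl1, with 0.52 ± 0.15 (adjusted p = 0.368). Without miRbmxl1 replicate 1, 2 members were called for miRbmxl1, Cnn2 at 0.73 (adjusted p = 0.0268) and Anxa2 at 1.01 (adjusted p = 0.0335), where 0.312% of all genes were called.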

How the data were processed

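RNA-seq counts of 12 Neuro-2a libraries in 3 groups of 4 were used. The authors deposited raw counts per Ensembl gene without normalization. Per the submitters' processing notes, cutadapt, STAR 2.5.3a, HTSeq 0.6.1p1, R 3.3.2 and DESeq2 1.16.1 were used with the mm10 build. The order of steps, the annotation and the strand setting are not given in the sources used here, so reads of genes that overlap on opposite strands may be mixed. Rows that name no gene held 52.3% to 57.4% of each file's total, among them reads with several alignments, and were left out.

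Symbols and positions came from GENCODE M21 (GRCm38), which held 55141 of the identifiers. Counts were fitted with edgeR 4.0.16 in R 4.3.3: filterByExpr (minimum count 10, minimum total 15), TMM scaling, and a quasi-likelihood model with group and replicate number. Differences between replicates 3 and 4 and replicates 1 and 2 were fitted with group as covariate, and interactions with group, number and group by set. Adjusted p-values are Benjamini-Hochberg over 17569 genes, two-sided, at a threshold of 0.05. Standard errors were derived from the log2 difference and the F statistic. The scripts were tested on simulated data. DESeq2 1.42.0, other scalings and filters, a fit with no replicate block, and fits without each library were the alternatives.

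The replicate number was used as a block because the rule that defines the members names it. Libraries of different groups that share a number deviated together, with r from 0.20 to 0.52 in 12 pairs. Libraries with different numbers of the same set gave 0.10 to 0.43 in 12 pairs, and those of different sets −0.57 to −0.13 in 24. The ranges for the same number and for another number of the same set overlap. The number within a set held a median of 4.45% of a member's variance, and the set 40.1%. Pairing by single number is thus not given by the labels and is only weakly borne by the values. No replicate pair of a group agreed within sampling noise (chi-square per degree of freedom 9.02 to 92.4 over 18 pairs). The labels call the replicates biological and name no separate cultures, so p-values measure the spread between these libraries, which may in part be technical.

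The members, the sets and the 7 pathway lists of 135 genes were chosen with earlier results of these data known. Myl12b, with 2 identifiers, was left out. The values of some marker genes are not reported here. All members are named. From a pathway list, called genes with a mean of at least 1 CPM are named by size of difference, at most 4 per list, comparison and direction, and some of these are given as counts only.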

Additional observations from a re-analysis of the deposited data

Results flagged for a closer look

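Among the 39 tested members in 3 groups, 117 sets of 4 libraries were checked for a library far from the others, and 2 (1.71%) were found. For 4 libraries of 1 common spread chance gives about 1 in 20. Many members split between replicates 1 and 2 and replicates 3 and 4, which hides single outlying libraries, so that rate does not apply here. Flna in miScramble replicate 1 was at 837 CPM, with the next library at 983 CPM and the highest at 1005 CPM. Col4a2 in miScramble replicate 2 was at 427 CPM, with the next at 373 CPM and the lowest at 365 CPM. Both are miScramble libraries and enter every comparison with the knockdowns. Without miScramble replicate 1 the log2 difference of Flna was 0.37 in miRbmx and 0.40 in miRbmxl1, beside 0.35 and 0.38 with it. Without miScramble replicate 2 the differences of Col4a2 were 0.25 and 0.21, beside 0.20 and 0.16.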

How the results depend on the processing

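The members called against miScramble depended on the replicate block: with no replicate block 0 members and 0 pathway genes were called in miRbmx and 0 and 0 in miRbmxl1. Within replicates 1 and 2 the counts were also 0 and 0 for both knockdowns. Within replicates 3 and 4, 14 members were called in miRbmx and 12 in miRbmxl1, and 10.1% and 5.53% of all genes, beside 0.0230% and 0.172% within replicates 1 and 2. Leaving out a library or a number gave 0 to 15 members and 2 to 23 pathway genes in miRbmx, and 0 to 10 members and 1 to 17 pathway genes in miRbmxl1, where 0.831% to 10.7% and 0.570% to 5.77% of all genes were called. DESeq2 called 13 and 7 members (10.4% and 6.34% of all genes) and relative log expression scaling 9 and 5 (7.99% and 4.23%), and no called member changed sign against miScramble in any of 23 settings. Between replicate sets, 17 members were called within miRbmx and 7 within miRbmxl1, and 45 pathway genes within miScramble and 26 within miRbmxl1, where 25.7%, 32.6% and 12.2% of all genes were called within miScramble, miRbmx and miRbmxl1. Tpm2 reversed to −0.02 within miScramble and Cnn2 to 0.01 within miRbmxl1. The interaction for miRbmxl1 gave 0 to 2 members when a library was left out, and 0% to 0.543% of all genes (0.312% in the fit with 2 members). The no-filter setting moved no member count by over 1.5 times. Fits without libraries or within a set hold fewer libraries, and the cause was not tested otherwise. The median over all genes lay between −0.01 and 0.05 on the log2 scale in every setting. Depth limits Yap1, Ctgf, Ankrd1, Thbs1, Tagln, Lamb1, Anxa1 and Cav1, with at most 10 counts in a library, for which no difference was detectable.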
